A study of Mus musculus with 10 samples.

Results

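The arrays described here are the 5 labelled WT at 0 h, 1 for each of 5 mice, out of 10 arrays in the series. The other 5 arrays are of Crem-/- mice, which lack the cAMP-responsive transcription factor CREM, at the same time. All 10 mice were untreated, 8 weeks old and on a mixed 129Pas x C57Bl/J background, and were killed at the time of lights on. RNA of the whole adrenal gland, cortex, medulla, capsule and any attached tissue together, was hybridised to Affymetrix whole-transcript arrays. The sex of the mice is not given in the labels. The labels place WT 1 in batch 1, WT 2, WT 3 and WT 4 in batch 3 and WT 5 in batch 4, without saying at which step the batches were formed. The purpose was to describe the baseline transcriptome of the gland, so no genotypes were compared and no difference between groups was tested.

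The members are 19661 genes, each represented by 1 probe that names no other gene, the one with the highest mean in WT where there were several. A level is the deposited log2 signal, in which a difference of 1 is a doubling, and the spread is the SD of the 5 levels on the log2 scale. The signal of a probe also depends on how well it binds its target, so a rank orders genes by array signal and does not give the number of transcripts. The 500 genes with the highest mean are called high-signal genes below. Mean levels ran from 2.94 to 14.37 with a median of 7.54. The last of the 500 was Ctsh at 11.3455 and the next below was Dynll2 at 11.3449, so the boundary separates nothing. The 1012 olfactory receptor genes, a family used mainly by the nose, had a median level of 4.87 and a 99th percentile of 7.28, and 10737 genes (54.6%) had means above that percentile. No gene was called present or absent.

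One array stood apart. Across all 25664 probes, Pearson's r between pairs of arrays was 0.944 to 0.992, and the pairs holding WT 3 gave 0.944 to 0.977. Without WT 3 the lowest r was 0.979, and among WT 1, WT 2 and WT 5 it was 0.990. WT 4 lay between WT 3 and the others. Spreads are therefore given with and without WT 3 where it decides them. According to the labels, all RNA met a minimum of purity before hybridisation, and no measure of RNA integrity was used here.

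The adrenal gland is a pair of endocrine tissues in 1 organ. The cortex takes up or makes cholesterol and turns it into steroid hormones: aldosterone in the outer zona glomerulosa and, in rodents, corticosterone in the zona fasciculata, under the control of the pituitary hormone ACTH acting through cAMP. The medulla consists of chromaffin cells, which make, store and release adrenaline and noradrenaline together with peptides and proteins of the granin family.

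Genes of the cortex and of the medulla were both prominent among the highest signals. The 30 highest held 5 genes of the cortex lists (Cyp11a1, Cyp11b1, Star, Cyp21a1 and Scarb1) and 2 of the medulla lists (Cpe and Chga). Of the 68 measured genes on the cortex lists (steroid synthesis, ACTH response, cholesterol synthesis, cholesterol uptake and storage, zona glomerulosa, and the X-zone, an inner zone that is transient in the mouse), 20 were high-signal genes (29.4%). Of the 51 on the medulla lists (catecholamines, granins and peptides, exocytosis, transcription factors), 11 were (21.6%). By construction, 2.54% of all genes tested are high-signal genes. The 99 genes of the cytosolic ribosome and the respiratory chain contributed 32 (32.3%). These shares describe lists of genes well known for their expression in this gland.

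The labelled tissue was borne out by its defining markers. Cyp11a1, which cleaves the cholesterol side chain in the first step of steroid synthesis, ranked 3 of all genes with levels of 14.05, 14.00, 13.97, 14.07 and 13.99 in WT 1 to WT 5. Its highest and lowest arrays differed 1.07-fold, and its SD of 0.04 placed it among the 20 least variable high-signal genes. Cyp11b1, the enzyme of the last step to corticosterone, ranked 4 with 13.98, 13.94, 14.02, 14.05 and 14.07. Star, which carries cholesterol to the inner mitochondrial membrane, ranked 5 with 13.76, 13.88, 14.03, 14.12 and 14.00. Cyp21a1, the steroid 21-hydroxylase, ranked 7 with 13.93, 13.86, 13.83, 13.97 and 13.83. These 4 genes were at nearly the same level in every mouse, and Star, with an SD of 0.14, varied most among them. The order of Cyp11a1, Cyp11b1 and Star, whose means of 14.01, 14.01 and 13.96 lie within 1 SD of Star, is not resolved. Levels this close to the highest value on the arrays (14.59) may vary little because signal is compressed there, which was not tested.

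**Figure D1:**
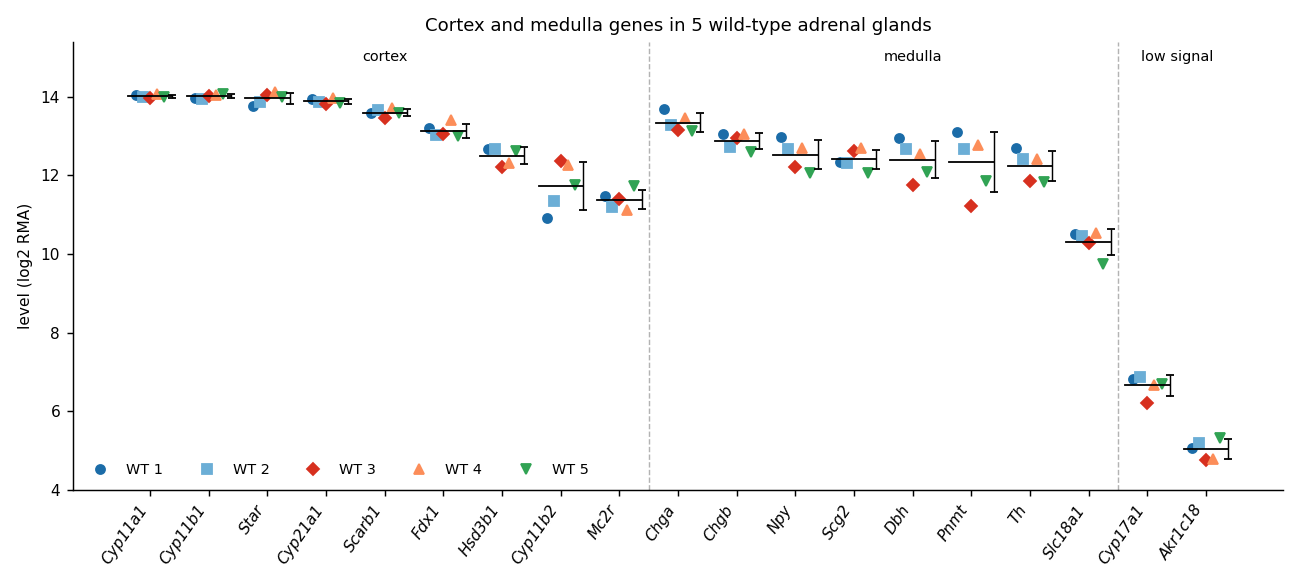
Level (log2 RMA) of cortex and medulla genes on each of the 5 wild-type arrays. Symbols are single mice, horizontal lines are means and bars on the right of each gene are ± 1 SD (n = 5). Cyp11a1, Cyp11b1, Star and Cyp21a1 lie together near 14 on all arrays, Cyp11b2 and the medulla genes Dbh and Pnmt spread over more than 1 unit, and Cyp17a1 and Akr1c18 have low signal.

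The electron carriers and remaining enzymes of the pathway followed. Fdx1, the ferredoxin that supplies electrons to the mitochondrial steroid enzymes, had a mean of 13.13 ± 0.18 (SD, n = 5). Hsd3b1, which makes progesterone from pregnenolone, had 12.50 ± 0.21, and Tspo, a protein of the outer mitochondrial membrane, had 12.39 ± 0.26. Of the 12 measured steroid genes 9 were high-signal genes, and the mean of the 12 was 11.76, 11.81, 11.66, 11.78 and 11.80 in WT 1 to WT 5. Cyp17a1, the 17-hydroxylase that rodent adrenal glands hardly use, was the lowest of the 12 at 6.66 ± 0.26, below the 99th percentile of the olfactory receptors. Hsd11b1, which regenerates active glucocorticoid, was at 10.24 ± 0.27. Akr1c18, a marker of the X-zone, was at 5.03 ± 0.25. None of the 4 X-zone genes was a high-signal gene, but only 2.54% of all genes are, so this count says nothing about the zone.

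In the pathways that supply cholesterol, the 12 genes of uptake and storage had a median level of 10.61 and the 18 genes of synthesis one of 9.77. Scarb1, the receptor for high-density lipoprotein, ranked 12 with a mean of 13.60 ± 0.09. Apoe, an apolipoprotein, was at 12.92 ± 0.17, and Plin2, which coats lipid droplets, was at 12.04 ± 0.17. Among the synthesis genes, 2 were high-signal genes: Dhcr7, the last enzyme of the pathway, at 12.19 ± 0.23, and Msmo1, a methyl sterol oxidase, at 12.03 ± 0.35. Hmgcs1, which makes the precursor of mevalonate, was the most variable of this list with 9.20, 9.03, 10.57, 11.01 and 9.48. It was highest in WT 4 and WT 3, and the other 3 mice were within 0.5 of each other.

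The regulators of the cortex spanned a wide range. Mc2r, the ACTH receptor, was at 11.38 ± 0.25 and its accessory protein Mrap at 11.64 ± 0.16. Prkar1a, a regulatory subunit of the cAMP-dependent protein kinase, was the highest of the list at 12.05 ± 0.28. Crem itself was at 7.45, 7.23, 8.14, 7.62 and 7.27, close to the median of all genes. In WT 2 and WT 5 it lay below the 99th percentile of the olfactory receptors (7.28). Nr0b1, a nuclear receptor that restrains steroid gene transcription, was at 8.21, 9.09, 8.40, 8.39 and 9.49, with WT 2 and WT 5 above the rest.

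The zona glomerulosa list held the most variable of the steroid genes. Cyp11b2, the aldosterone synthase, was at 10.91, 11.35, 12.36, 12.26 and 11.75 in WT 1 to WT 5, a 2.75-fold range and an SD of 0.61, and it ranked 313. Cyp11b1 and Cyp11b2 are close in sequence, so part of either signal may come from the other. Vsnl1, a calcium sensor of glomerulosa cells, was at 10.22, 9.68, 11.17, 11.57 and 10.65. Both genes had WT 3 and WT 4 as their highest arrays, and 6 of the 11 measured glomerulosa genes did, where 19.7% of all genes tested have those arrays on top. Hsd3b6, the glomerulosa form of the 3-beta-hydroxysteroid dehydrogenase in the mouse, ran the other way, with 12.03, 12.40, 11.46, 11.56 and 11.75. Agtr1a, the angiotensin receptor, was at 12.17 ± 0.23, and Dab2, an endocytic adaptor, at 12.28 ± 0.28.

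The defining genes of chromaffin cells, Chga, Th, Dbh and Pnmt, were all high-signal genes. Chga, the granin that shapes secretory granules, ranked 23 with 13.69, 13.29, 13.15, 13.46 and 13.13. Cpe, which trims peptide precursors and is made in many endocrine cells, was at 13.44 ± 0.08. Unlike Chga, which was lowest in WT 5, Cpe was highest there. The granins Chgb and Scg2 were at 12.88 ± 0.20 and 12.41 ± 0.25, and Npy, the neuropeptide stored with catecholamines, was at 12.53 ± 0.37.

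The enzymes of catecholamine synthesis varied more. Th, the first enzyme, was at 12.70, 12.40, 11.85, 12.43 and 11.82. Dbh, which makes noradrenaline, was at 12.94, 12.67, 11.75, 12.53 and 12.10. Pnmt, which turns noradrenaline into adrenaline and whose gene responds to glucocorticoid, was at 13.11, 12.68, 11.23, 12.78 and 11.86, a 3.68-fold range and an SD of 0.77 (0.53 without WT 3). For Dbh and Pnmt, WT 1 was highest, WT 3 lowest and WT 5 next to lowest, and Th had WT 1 highest with WT 5 and WT 3 lowest. Over the 51 medulla genes, WT 1 was the highest array for 26 (51.0%), where it is for 19.6% of all genes tested, WT 3 was the lowest for 28 (54.9%), where it is for 42.1%, and WT 5 was the lowest for 19 (37.3%), where it is for 12.8%. The mean of the 51 was 9.88, 9.77, 9.54, 9.74 and 9.45, against 10.04, 10.11, 10.05, 10.22 and 10.18 for the 68 cortex genes. The SD of these means was 0.18 for the medulla and 0.08 for the cortex, but the cortex lists differed in direction between mice and cancel in part: the mean of the cholesterol synthesis list had an SD of 0.19 and that of the glomerulosa list 0.16. Gene by gene, the median SD was 0.340 for the medulla and 0.274 for the cortex, and 9 of 51 (17.6%) and 9 of 68 (13.2%) had an SD over 0.5, where 9.17% of all genes tested do. In whole glands, fewer cells of a type and less RNA per cell cannot be told apart.

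Not every chromaffin gene followed this order. Snap25, a membrane fusion protein of exocytosis, was at 8.13, 7.91, 9.81, 8.30 and 7.65, and Slc18a2, a vesicular monoamine transporter, at 8.15, 7.56, 9.17, 8.52 and 7.37. For these genes WT 3 was the highest array and WT 5 the lowest. Slc18a1, the transporter form typical of chromaffin cells, was at 10.52, 10.46, 10.27, 10.54 and 9.75. Pcsk1, which cuts peptide precursors, and Gata3, a transcription factor of chromaffin cells, were also lowest in WT 5, at 9.23 and 8.86 against 10.23 to 10.45 and 9.59 to 9.78 in the others.

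Because CREM and its relatives bind the cAMP response element (TGACGTCA, a palindrome that reads the same on both strands), the 250 bases before the RefSeq start of each gene (assembly GRCm38.p6) were searched for it. It was present before 359 of 15353 genes with a listed promoter (2.34%), 23 of 400 high-signal genes (5.75%), 1 of 43 cortex genes and 5 of 38 medulla genes (Th, Chgb, Scg2, Pcsk1 and Cartpt). A match describes the letters and is not evidence of binding. The stretch around the element is shown for the 3 medulla genes of the 5 that were high-signal genes, 60 bases upstream of the start on the strand of the gene, with the element in capitals. Th lies on the minus strand (chr7:142900007-142900066), Chgb on the plus strand (chr2:132781544-132781603) and Scg2 on the minus strand (chr1:79440061-79440120), and the elements begin 45, 72 and 68 bases before the start.
Th: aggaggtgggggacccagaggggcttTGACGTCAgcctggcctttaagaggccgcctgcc
Chgb: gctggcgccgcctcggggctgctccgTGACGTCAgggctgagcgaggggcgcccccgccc
Scg2: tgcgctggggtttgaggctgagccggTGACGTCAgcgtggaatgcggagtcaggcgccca

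The same windows were searched on both strands for AAGGTCA, a core sequence bound by the steroidogenic factor Nr5a1. It was present before 612 of the 15353 genes (3.99%), 20 of 400 high-signal genes (5.00%) and 1 of 38 medulla genes. Of the 68 cortex genes, 43 had a listed promoter. Star, Cyp11b1 and Cyp21a1 had none and were searched for neither sequence, while Cyp11a1 was searched and had no match. The sequence was present before 4 of the 43 (Dhcr7, Hmgcs1, Cyp2f2 and Mrap2). The window of Dhcr7, the high-signal gene among these 4, is shown with the match in capitals (plus strand, chr7:143823090-143823149, beginning 51 bases before the start).
Dhcr7: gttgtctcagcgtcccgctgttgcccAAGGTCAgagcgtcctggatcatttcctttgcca

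Outside the endocrine genes, the highest signals came from genes that most cells use. Eef1a1, a translation elongation factor, had the highest mean of all at 14.37 ± 0.04, followed by Actb, cytoplasmic actin, at 14.07 ± 0.04. The ribosomal stalk proteins Rplp0 and Rplp1 (13.49 and 13.37), the ferritin heavy chain Fth1 (13.82), the ATP synthase subunit Atp5b (13.39), the glycolytic genes Hk1 and Aldoa (13.44 and 13.32) and the mitochondrial peroxiredoxin Prdx3 (13.33) were all among the 30 highest. Several of these genes have processed copies elsewhere in the genome that their probes may also detect.

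Others of the 30 highest are less widely expressed. Adh1, an alcohol dehydrogenase that also handles retinol, ranked 9 with 13.75, 13.85, 13.16, 13.78 and 13.99. Ly6d, a surface protein best known from lymphocytes and epithelia, ranked 11 with 13.70, 13.51, 13.52, 13.77 and 13.59. Abcb1b, a drug efflux transporter, ranked 19 with 13.03, 13.42, 13.28, 13.69 and 13.44, and Fads2, a fatty acid desaturase, ranked 17 with 13.46, 13.47, 13.13, 13.51 and 13.47. Adh1 and Fads2 were lowest in WT 3, and Ly6d and Abcb1b were highest in WT 4.

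Of the 500 high-signal genes, 493 are annotated as protein coding. The other 7 are the small RNAs Rn7sk, Rpph1, Rny3, n-R5s136 and Rmrp and the long noncoding RNAs Malat1 and Gas5. Rn7sk, which holds a transcription elongation factor in reserve, ranked 6 at 13.95 ± 0.06. Labelling used random primers, so RNAs without a poly(A) tail could be labelled.

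The median SD of the high-signal genes was close to that of all genes, but fewer of them had a large spread. Their median SD was 0.215, against 0.208 for all 19661 genes (0.174 and 0.171 without WT 3). An SD over 0.5 was found for 26 of the 500 (5.20%), where 9.17% of all genes tested pass it, and an SD under 0.1 for 58 (11.6%), where 10.4% of all genes tested do. The spread depended on the level: in 10 bins of genes ordered by mean level, the median SD was 0.146 in the lowest bin, reached 0.293 in bin 9 and was 0.257 in the highest, which contains the 500. One array was set apart from the other 4, by a gap over 0.71 of the range, for 12 of the 500 (2.40%), where it was for 5.86% of all genes tested.

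**Figure D2:**
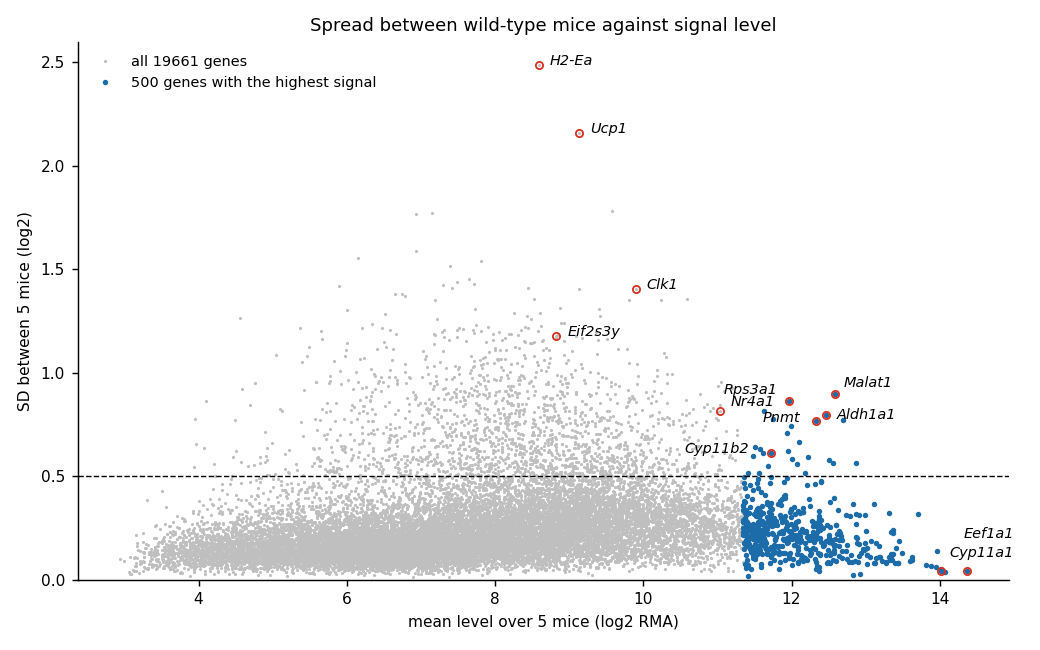
SD between the 5 wild-type mice against mean level for all 19661 genes (grey) and the 500 high-signal genes (blue), on linear axes in log2 units. The dashed line marks an SD of 0.5, which 26 high-signal genes pass. H2-Ea and Ucp1 have larger SDs than any high-signal gene, and Eef1a1 and Cyp11a1 at the far right have SDs of 0.04.

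The 30 least variable high-signal genes had SDs of 0.02 to 0.08, and Aplp2 was next at 0.0826. Rbm8a, a core protein of the exon junction complex, had the smallest SD, with 11.40, 11.43, 11.39, 11.41 and 11.42. Itm2b, a membrane protein, was at 12.83 ± 0.02 and Txn1, thioredoxin, at 12.92 ± 0.03. The set included the steroid genes Cyp11a1, Cyp11b1 and Cyp21a1 beside Actb, Eef1a1, Rac1, a small GTPase of the cytoskeleton, and Slc25a4 and Slc25a3, the adenine nucleotide and phosphate carriers of mitochondria. The 10 measured genes commonly used as references in quantitative PCR differed among themselves. Actb had an SD of 0.04, but Tfrc, the transferrin receptor, had 0.57 with 8.39, 8.02, 9.37, 8.82 and 8.05, and Polr2a, the large subunit of RNA polymerase II, had 0.38. Their mean was nearly constant at 11.23 to 11.27.

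The 30 most variable high-signal genes had SDs of 0.486 to 0.898, and Cxcr4 was next at 0.476. Malat1, a nuclear noncoding RNA, had the largest SD, with 11.89, 12.03, 13.96, 13.05 and 12.00, a 4.18-fold range. WT 3 and WT 4 were its highest arrays, and the remaining 3 mice had an SD of 0.07. The 30 were chosen by their spread over these same 5 arrays, so counts of arrays among them describe the choice and test nothing. WT 3 and WT 4 were the 2 highest for 18 of the 30, where they are for 19.7% of all genes tested. They included the RNA helicases Ddx5 (11.57, 11.38, 12.91, 12.68 and 11.41) and Ddx6, the nuclear RNA-binding protein Hnrnpu, the poly(A)-binding protein Pabpc1, the chaperones Hsp90b1 and Hspd1, and Prkar2b, another regulatory subunit of the cAMP-dependent kinase (11.51, 10.87, 12.43, 12.53 and 10.84). For 3 of the 30, namely Uqcrh, Rps9 and Cd63, WT 3 and WT 4 were the 2 lowest instead.

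**Figure D3:**
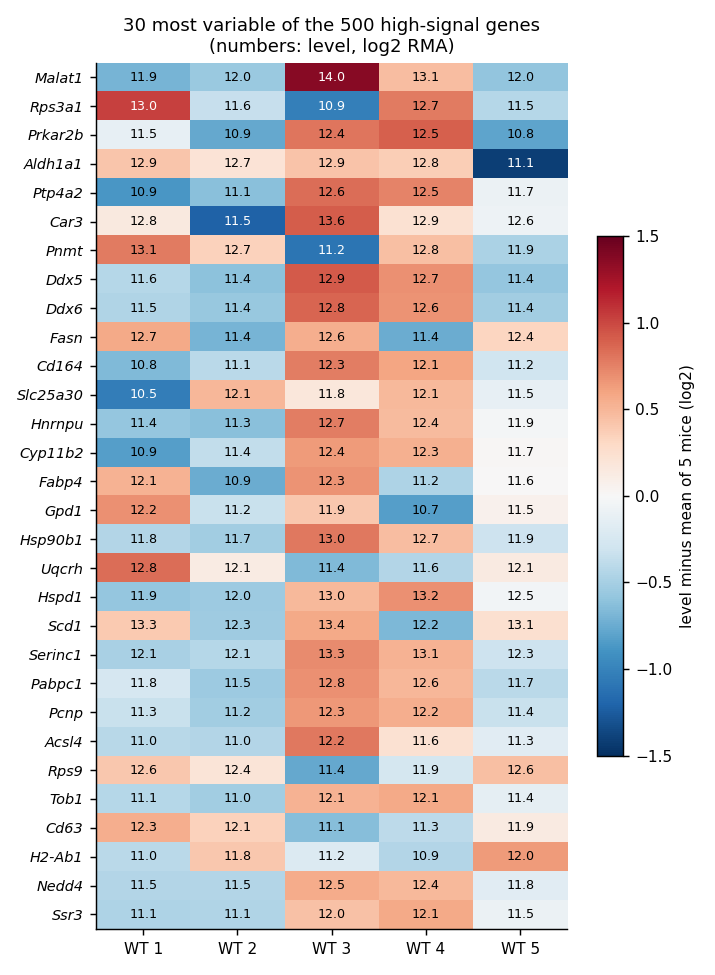
The 30 high-signal genes with the largest SD between the 5 wild-type mice, in order of SD. Colour gives the level minus the mean of the 5 mice (log2) and the printed number gives the level. Most rows are red in WT 3 and WT 4, while Fasn, Fabp4, Gpd1 and Scd1 are blue in WT 2 and WT 4.

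The remaining variable genes did not follow these 2 arrays. Aldh1a1, which makes retinoic acid, was at 12.88, 12.67, 12.89 and 12.84 in WT 1 to WT 4 and at 11.06 in WT 5, which alone lay apart. Rps3a1, a ribosomal protein gene with near-identical copies, was at 12.99, 11.62, 10.95, 12.74 and 11.54. Slc25a30, a mitochondrial carrier, was at 10.54, 12.08, 11.75, 12.07 and 11.46, lowest in WT 1. H2-Ab1, an MHC class II chain of antigen-presenting cells, was at 10.95, 11.76, 11.15, 10.91 and 12.00, and its partner H2-Aa had the same 2 highest arrays, WT 5 and WT 2. WT 1, WT 2 and WT 5 were the 3 arrays with the highest correlations. Among them, 11 high-signal genes had an SD over 0.5: Aldh1a1, Rps3a1, Slc25a30, Car3, Fasn, Fabp4, Pnmt, Trank1, H2-Ab1, Rgs2 and Gpd1. The share of all genes over 0.5 among these arrays was not computed, so 11 cannot be called many or few.

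Several of the variable genes are known for roles in fat cells. Fabp4 is on the adipocyte list, and Fasn, Scd1, Gpd1 and Car3 are on no list and were picked after their values were seen. Fasn, fatty acid synthase, was at 12.67, 11.40, 12.65, 11.35 and 12.42. Scd1, a desaturase, was at 13.26, 12.33, 13.44, 12.20 and 13.11. Fabp4, the fatty acid binding protein of adipocytes, was at 12.15, 10.87, 12.29, 11.16 and 11.63, and Gpd1, glycerol-3-phosphate dehydrogenase, was at 12.17, 11.15, 11.88, 10.66 and 11.54. Fasn, Scd1, Fabp4 and Gpd1 were higher in WT 1, WT 3 and WT 5 than in WT 2 and WT 4. Car3, the muscle and fat form of carbonic anhydrase, did not have this split. It was at 12.85, 11.48, 13.61, 12.93 and 12.62, lowest in WT 2 but with WT 4 next to highest.

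Defining markers of brown fat showed the same split. Ucp1, the uncoupling protein of brown adipocytes, was at 11.74, 8.06, 10.54, 6.18 and 9.17, a 47.1-fold range. Cidea, a lipid droplet protein, was at 11.54, 8.12, 10.44, 7.30 and 10.47. Adipoq, adiponectin, which brown and white adipocytes both secrete, was at 11.46, 9.37, 11.08, 9.98 and 10.98. Of the 16 measured adipocyte genes, 12 were higher in WT 1, WT 3 and WT 5 than in WT 2 and WT 4. This split was found for 4.08% of all genes tested. An SD over 0.5 was found for 11 of the 16 (10 without WT 3), where 9.17% of all genes tested pass it. The mean of the 7 brown adipocyte genes was 9.71, 7.69, 8.77, 7.09 and 8.35. WT 2, WT 3 and WT 4 are of 1 batch and lie on both sides of this split. How much adipose tissue was attached to each gland was not recorded in the labels, and its part in the levels of Fasn, Scd1, Fabp4 and Gpd1 was not tested.

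Markers of neighbouring and distant tissues gave low signals. The 7 kidney, 9 skeletal muscle and 9 lymphocyte genes had median levels of 6.20, 6.90 and 6.34, below the 99th percentile of the olfactory receptors. Of the 12 liver and pancreas genes, Alb, serum albumin, was at 8.19, 7.81, 10.19, 7.95 and 7.24, highest in WT 3. Markers of several resident cell types had higher signals. Median levels were 10.35 for the 12 endothelial genes, 9.90 for the 16 macrophage and MHC class II genes and 9.88 for the 15 capsule and stroma genes. Glia, also resident, did not: the 8 genes of Schwann and sustentacular cells had a median of 6.88, below the same percentile. Among endothelial genes Emcn was at 11.59 ± 0.19 and Kdr, a VEGF receptor, at 11.27 ± 0.18, and the stromal proteoglycan Dcn was at 12.31 ± 0.26. The mean of the 16 macrophage and MHC class II genes was 9.85, 10.25, 9.47, 9.57 and 10.19, lowest in WT 3 and WT 4.

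**Figure D4:**
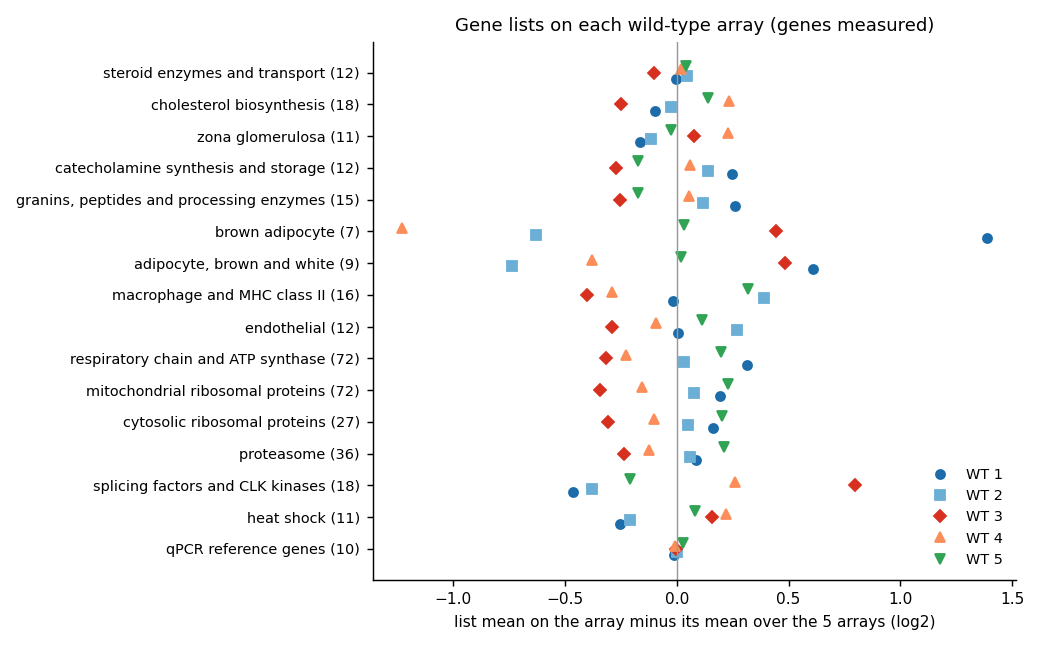
Mean level of each gene list on each wild-type array minus its mean over the 5 arrays (log2), with the number of measured genes in parentheses. Brown adipocyte genes spread over more than 2 units, splicing factors are highest in WT 3 and WT 4, respiratory chain, ribosomal and proteasome genes are lowest in the same arrays, and steroid genes and reference genes hardly move.

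WT 3 and WT 4 shared an order across many functions. Of the 18 measured splicing factors and CLK kinases, 13 had these arrays as the 2 highest, where 19.7% of all genes tested do. Clk1, a kinase of splicing factors, was at 8.87, 8.84, 12.02, 10.66 and 9.09, and Rbm39, a splicing cofactor, at 9.27, 9.48, 11.89, 10.89 and 9.84. In the opposite direction, the arrays were the 2 lowest for 56 of the 72 genes of the respiratory chain and ATP synthase, 61 of the 72 mitochondrial ribosomal proteins, 18 of the 27 cytosolic ribosomal proteins and 27 of the 36 proteasome subunits. They are the 2 lowest for 30.7% of all genes tested and for 265 of the 500 high-signal genes (53.0%). The mean of the respiratory genes was 11.07, 10.79, 10.44, 10.53 and 10.96. WT 2 is of the same batch as WT 3 and WT 4 and lay with WT 1 and WT 5 in the splicing list, at 9.53 beside 9.44 and 9.70 and below 10.71 and 10.17. In a principal component analysis of the high-signal genes, the first component took 66.3% of the variance between mice and set WT 3 and WT 4 (0.68 and 0.39) against WT 1, WT 2 and WT 5 (-0.42, -0.36 and -0.28). RNA quality as a part of this pattern was not tested.

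The 25 measured immediate early genes, which respond to stimuli within minutes to hours, had a median SD of 0.25 against 0.208 for all genes, and 3 of them had an SD over 0.5 (12.0%, where 9.17% of all genes tested do). Nr4a1, an immediate early nuclear receptor induced by ACTH, was at 11.08, 10.36, 11.45, 12.14 and 10.14, a 3.99-fold range. Jun was at 11.64 ± 0.26. Nr1d1, the clock gene that encodes the nuclear receptor REV-ERB alpha, was at 10.22, 10.85, 10.09, 9.92 and 11.17, and Dbp, another clock output gene, at 9.60, 10.06, 9.42, 9.10 and 10.31. Both had WT 5 and WT 2 as their highest arrays. Arntl, which drives the clock with its partner Clock, had a smaller spread, 10.07 ± 0.13, while Clock itself was at 8.10, 7.90, 10.42, 9.09 and 8.16. Among the 11 measured heat shock genes, 6 had an SD over 0.5. Hspa8, a constitutive chaperone, was at 13.39, 13.36, 13.35, 12.58 and 12.86, and Hsph1, an inducible one, at 10.98, 11.08, 11.84, 12.00 and 11.76.

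The 5 Crem-/- arrays had no part in choosing the variable genes, so their spread is given beside that of the WT arrays. It is described without comparing levels between genotypes. The 30 most variable genes had a median SD of 0.761 between the Crem-/- arrays, from 0.356 to 2.09, and 25 of them passed 0.5, where 22.2% of all genes tested do. The 30 least variable had a median SD of 0.158, from 0.0431 to 0.424, and 0 passed 0.5. The median over all 500 was 0.340. KO 1 and KO 3 had stood apart in earlier results of these data. Without KO 1, 26 of the most variable passed 0.5, and without KO 1 and KO 3, 25 of the most variable and 1 of the least variable did. The largest of these SDs belonged to Pnmt at 2.09 and Car3 at 1.64, and the smallest to Rps9 at 0.356. The value of Pnmt rested on KO 1. Without KO 1 it was 0.82 for Pnmt and 1.68 for Car3, then the largest of the 30.

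**Figure D5:**
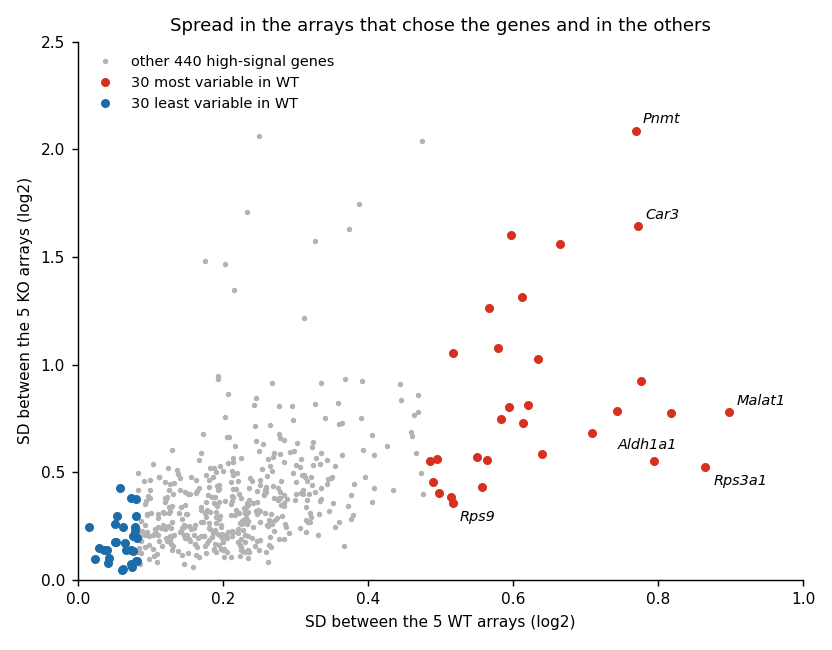
SD between the 5 Crem-/- arrays against SD between the 5 wild-type arrays (both log2) for the 500 high-signal genes. The 30 genes most variable in wild type (red) and the 30 least variable (blue) were chosen on the horizontal axis alone. On the vertical axis 25 of the red points and 0 of the blue points lie above 0.5.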

How the data were processed

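The deposited values are log2 signals per probe. The submitters' processing notes name RMA, which the authors used to correct background, normalise by quantiles and summarise probes. No source used here gives its software, version or filters, or says whether batches were adjusted. Quantile normalisation gives all arrays nearly the same distribution (array medians 7.17 to 7.23), so a level is relative to the other genes of the array. The number of arrays limits the precision, and each mouse gave 1 array.

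Of 35557 rows, 25689 held values and the 9868 others were not analysed here. After 25 control probes were left out, 25664 probes remained, of which 20777 carry 1 gene symbol, 232 several and 4655 none. RefSeq was matched through Entrez IDs (GRCm38.p6; 19584 of 19661 genes matched). 564 genes had several probes, of which the one with the highest mean was kept. Promoters were listed for 15353 genes. Protein sequences were not used here.

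For each gene the mean, SD, range and rank over the WT arrays were computed in Python 3.11.15 with pandas 2.3.3 and numpy 2.4.6, and the scripts were checked on simulated data. No test between groups was made. Genes were named by rule: the 30 highest, the 20 most and 20 least variable among the 500 highest, up to 4 members with the highest mean and up to 3 with the largest SD of each of 38 gene lists, and the defining cortex, medulla, brown fat, strain and sex-linked genes. The text gives a selection of these. Members and lists were chosen with earlier results of these data known, and genes outside the rule (among them Crem, Hsd3b1, Fdx1, Scg2, Tspo, Cyp17a1, Slc18a1, H2-Ea, Vnn1, Meg3 and Rian) were chosen after their values were seen. Alternatives were other set sizes, SD thresholds, a robust spread, batch 3 alone and leaving out arrays.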

Additional observations from a re-analysis of the deposited data

Results flagged for a closer look

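Among 303 groups of 5 WT levels (265 named genes and 38 list means), 20 (6.60%) had an array set apart from the other 4, by a gap over 0.71 of the whole range. Chance alone sets about 1 in 20 apart, and over all genes it was 5.86%. WT 3 was that array in 13, and over all genes it was that array in 720 of 1152 (62.5%). It was the lowest array for the metabolic genes Adh1 (gap 0.71 of the range), Fads2 (0.857) and Fdps (0.860), the metallothionein Mt2 (0.738), the muscle genes Acta1 (0.735) and Ckm (0.738), the erythroid Slc4a1 (0.731) and the kidney transporter Slc34a1 (0.774). It was the highest for the transcription factor Creb1 (0.750), the Y-linked Uty (0.735), the fibrinogen chain Fgb (0.805), the interferon-inducible GTPase Iigp1 (0.752) and the cadherin Cdh19 (0.815). Ckm, Slc4a1, Slc34a1 and Cdh19 lay below the 99th percentile of the olfactory receptors (7.28) on every array. Some of the gaps were small: Ckm was at 6.94 against 7.18 to 7.26, Slc4a1 at 6.92 against 7.17 to 7.26 and Slc34a1 at 6.23 against 6.53 to 6.62.

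WT 5 was set apart for Aldh1a1 (0.877), Pcsk1 (0.819) and Gata3 (0.796), where it was lowest, and for Selenof (0.796) and Sar1b (0.719), where it was highest but by a small amount, 12.42 against at most 12.32 and 11.70 against at most 11.59. WT 2 was highest for the calcium-binding chaperone Calr (0.854), at 12.86 against 12.46 to 12.52. The mean of the ACTH response and cortex regulators was set apart in WT 1 (0.71), at 9.34 against 9.49 to 9.55.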

How the results depend on the processing

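Of 130 alternatives to the summary values, 102 kept them within the set margins and 28 did not, and 3 of 418 list means moved by more than their SD. The high-signal set shared 471 to 500 of its 500 genes with 10 alternatives of arrays, scaling or probe choice for which this was counted, and 457 without WT 3 and WT 4. The number of high-signal genes with an SD over 0.5 (26) was 45 in batch 3 alone, 10 among the 200 highest genes, 64 among the 1000 highest, 116 with an SD over 0.3, 0 with an SD over 1, 9 without WT 3 and WT 4 (chosen after seeing the data), and 20 to 39 with each array left out in turn. The median SD of high-signal genes and of all genes became 0.113 and 0.132 without WT 3 and WT 4, and 0.174 to 0.227 and 0.171 to 0.215 with single arrays left out. Among the 200 highest genes 12 were of the cortex lists and 19 of the ribosome and respiratory lists, which gave 52 among the 1000 highest. Of the 30 most variable genes, 17 were kept in batch 3 alone, 10 among the 200 highest, 9 among the 1000 highest, 14 with the median absolute deviation, 12 without WT 3 and WT 4 and 24 to 27 with single arrays left out. Of the 30 least variable, 13 were kept in batch 3 alone, 19 among the 1000 highest, 11 with the median absolute deviation, 5 without WT 3 and WT 4 and 17 to 22 with single arrays left out. High-signal genes with 1 array set apart numbered 12, and 10 to 58 with single arrays left out; batch 3 alone, with 3 arrays, gives no such count.

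No paired analysis was possible because no groups were compared and replicate numbers only name the mice. With 5 mice, an SD is itself imprecise, the membership of the most and least variable genes changes with single arrays, and no detection limit is given by RMA values. The array order of WT 3 and WT 4 decides much of the spread.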

Other observations

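The gene with the largest SD of all 19661 was H2-Ea, the alpha chain of the MHC class II molecule E, which some inbred strains lack. It was at 11.52, 6.62, 7.55, 11.01 and 6.29 in WT 1 to WT 5, a 37.6-fold range, so WT 1 and WT 4 were high and the other 3 mice low. Its partner chain H2-Eb1 was at 10.92, 11.80, 11.20, 10.84 and 11.85, lowest in WT 4 and WT 1. Vnn1, which releases cysteamine from pantetheine, was at 8.18, 11.06, 10.37, 8.54 and 10.89, with the same 2 arrays apart from the rest but low. Nnt, a mitochondrial transhydrogenase that is defective in some C57BL substrains, was at 10.13, 10.53, 10.43, 11.16 and 10.55, so no mouse had a level near that of the olfactory receptors. The individual genotypes of the mixed-strain mice are not given in the labels.

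Xist, which coats the inactive X chromosome, was at 4.62 to 5.26 on all arrays. The Y-linked gene Eif2s3y was at 8.34, 8.03, 10.73, 9.20 and 7.86, Kdm5d at 7.91 ± 0.69 (SD, n = 5), and Uty at 7.90, 7.77, 10.40, 8.34 and 7.60. These 3 genes were highest in WT 3, as were 23.4% of all genes tested. On every array Eif2s3y and Uty lay above the 99th percentile of the olfactory receptors (7.28) and Xist lay below it. The imprinted noncoding RNAs Meg3 (9.40, 9.47, 12.38, 10.80 and 9.17) and Rian (6.09, 5.91, 9.84, 7.35 and 5.49) and the interferon-inducible Ifit1 (6.39, 6.83, 8.66, 7.65 and 6.46) had the same 2 highest arrays, WT 3 and WT 4. Those arrays are the 2 highest for 19.7% of all genes tested and for 5 of the 12 measured interferon-stimulated genes. Meg3 and Rian were picked after their values were seen.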
